A study of Mus musculus with 16 samples.

Results

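Lyz1 and Lyz2 are neighboring mouse genes that both encode a lysozyme, and their transcripts were measured in tumor-associated peritoneal macrophages (TAMs). Both genes, found by their symbols, were followed here among the 55604 genes listed in each deposited lane. RNA-seq was done on Tim-4+ TAMs and Tim-4- TAMs taken from the peritoneal cavity of C57BL/6 mice bearing ID8 tumors, a mouse ovarian cancer line that grows in the peritoneum. The labels name no deletion, treatment or age, and both subsets share the ID8 tumors. Tim-4, encoded by Timd4, is a surface receptor for phosphatidylserine that marks peritoneal macrophages of the resident type. Per the study's methods, Tim-4+ cells were taken with antibody-coupled beads against Tim-4, and Tim-4- cells were then enriched from the remainder with beads against F4/80, so the subsets differ in how they were purified as well as in Tim-4. The labels number the 4 pairs 793, 784, 783 and 779, with 1 Tim-4+ and 1 Tim-4- library in each (n = 4 per subset). Whether a pair was 1 mouse or a pool of mice is not stated, so p-values refer to these libraries. Tests by pair rest on the spread of the differences within the 4 pairs, and unpaired tests on the spread between libraries.

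Lysozyme is a secreted and lysosomal muramidase that cuts the sugar backbone of peptidoglycan, the polymer of the bacterial cell wall. Lyz2 is the lysozyme M gene of macrophages, monocytes and neutrophils, and its locus drives the widely used LysM-Cre mouse lines. Lyz1 is the lysozyme P gene, best known from Paneth cells of the small intestine. In these TAM libraries both transcripts were present in all 8 libraries, both were higher in the Tim-4+ library of each pair, and Lyz2 was the more abundant of them in every library. Lyz1 was 2.75-fold higher in Tim-4+ TAMs and Lyz2 was 1.90-fold higher. The Lyz1 share of the joint lysozyme counts was also higher in Tim-4+ TAMs in 4 of 4 pairs, although the ranges of the subsets overlapped.

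Both genes lie on the minus strand of chromosome 10 in GRCm38. Lyz1 (ENSMUSG00000069515.6) spans chr10:117287797-117292868 and Lyz2 (ENSMUSG00000069516.8) spans chr10:117277331-117282321, and 5475 bp separate them. Each has 1 annotated transcript of 4 exons, 1263 bases long for Lyz1 and 1316 bases long for Lyz2, and 0 other annotated genes overlap either. The coding sequences have 447 bases each and differ at 22 bases (95.1% identity), which fall in 18 of the 149 codons. The 3′ untranslated regions were 96.3% identical. The differences are densest early in the coding sequence. A stretch of 60 coding bases in exon 1 (coding bases 61 to 120) holds 9 of the 22 differences and is shown because reads over it tell the transcripts apart. Capitals mark the bases that differ, and both lines read 5′ to 3′ on the transcribed strand, Lyz1 from chr10:117292719-117292778 and Lyz2 from chr10:117282123-117282182 (GENCODE transcripts, GRCm38).
Lyz1 coding stretch: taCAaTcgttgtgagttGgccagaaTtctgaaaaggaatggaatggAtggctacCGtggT
Lyz2 coding stretch: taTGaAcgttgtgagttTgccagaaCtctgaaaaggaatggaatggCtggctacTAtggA
Elsewhere the transcripts share long runs, the longest coding run being 118 bases (coding bases 276 to 393). Of the 1214 windows of 50 bases in the Lyz1 transcript, 195 (16.1%) also occur in Lyz2 and 0 occur in any other annotated transcript. For Lyz2, 195 of 1267 windows (15.4%) occur in Lyz1. Thus 83.9% of Lyz1 windows and 84.6% of Lyz2 windows belong to 1 gene. Reads that aligned to more than 1 place were set aside by the counting, so counts of both genes leave out such reads. Whether reads of the more abundant Lyz2 were counted on Lyz1 through base errors was not tested.

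**Figure D1:**
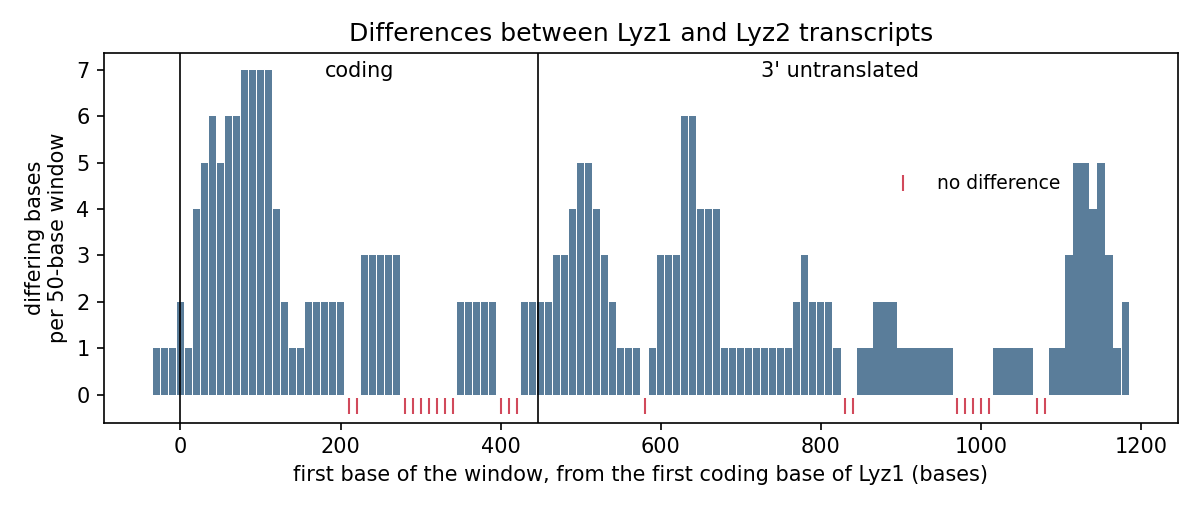
Number of Lyz1 bases that differ from or are missing in Lyz2 (y axis, bases) in windows of 50 bases taken every 10 bases along the Lyz1 transcript (x axis, first base of the window counted from the first coding base, in bases). Vertical lines bound the coding sequence and red ticks mark the 22 of 122 windows with no difference, while the tallest bars, with 7 differences, lie in the first part of the coding sequence.

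The sequence before the start site is similar close to the start and diverges further away. In the RefSeq windows of 300 bases around each start (250 bases upstream and 50 downstream, GRCm38.p6), identity was 83.6% over the whole window in a gapped alignment, and the 50 bases just before the start were identical in both genes. Their last 30 bases read the same in Lyz1 (chr10:117292869-117292898) and in Lyz2 (chr10:117282273-117282302).
Both genes, 30 bases before the start: gcttaaatagcaggcatgctttctctagtc
The 203 bases that open each window are shown because this is where the upstream sequences of both genes diverge. They read 5′ to 3′ on the minus strand, Lyz1 from chr10:117292916-117293118 and Lyz2 from chr10:117282320-117282522, and were 76.1% identical in a gapped alignment. Capitals mark matches to the motifs searched.
Lyz1 promoter: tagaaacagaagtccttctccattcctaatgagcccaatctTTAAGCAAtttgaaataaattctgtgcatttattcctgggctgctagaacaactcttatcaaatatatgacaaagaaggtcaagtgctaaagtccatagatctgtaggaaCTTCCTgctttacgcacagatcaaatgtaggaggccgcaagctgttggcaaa
Lyz2 promoter: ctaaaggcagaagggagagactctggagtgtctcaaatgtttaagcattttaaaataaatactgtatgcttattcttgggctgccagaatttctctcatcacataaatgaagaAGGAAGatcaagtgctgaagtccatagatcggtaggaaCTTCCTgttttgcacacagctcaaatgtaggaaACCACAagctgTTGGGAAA
Motifs were searched on both strands of the whole window. AGGAAG, the core bound by ETS factors such as PU.1, was found 1 time in Lyz1 (position -99 from the start) and 2 times in Lyz2 (-137 and -99), and 35.4% of all 32851 promoter windows hold it. ACCACA, the core bound by RUNX factors, was found only in Lyz2 among these 2 genes (-66) and occurs in 16.8% of all windows. TTNNGNAA, written for C/EBP factors, was matched at -209 in Lyz1 and at -55 in Lyz2 and occurs in 40.7% of all windows. TGANTCA, the AP-1 motif (7.81% of all windows), and TATAAA (13.6%) were found in neither. No motif position overlapped another. These are matches of letters only. The GENCODE start of Lyz2 lies 49 bases upstream of the RefSeq start, whereas for Lyz1 they coincide.

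Tim-4+ libraries held 53527928 to 57768202 counts and Tim-4- libraries 55618306 to 69594245. Levels are given in CPM, each library's counts relative to its own total after scaling by the trimmed mean of M-values (TMM), and 3 counts correspond to 0.0382 to 0.0630 CPM, far below both genes. Timd4 followed the sort in each pair, at 1160, 1743, 524.0 and 1166 CPM in the Tim-4+ libraries of pairs 793, 784, 783 and 779. The Tim-4- libraries had 84.9, 11.1, 22.3 and 1.96 CPM in that order. The Tim-4- library of pair 793 thus kept the most Timd4 of its subset and the Tim-4+ library of pair 783 had the least of its own. The 7 macrophage markers Adgre1, Csf1r, Cd68, Mertk, Fcgr1, Itgam and Mrc1 together had 8785 to 10040 CPM in Tim-4+ and 4453 to 6391 CPM in Tim-4- libraries, more than the tumor or mesothelial markers described further on in every library.

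Lyz1 was higher in Tim-4+ TAMs. Its level was 3191 CPM in pair 793, 2291 CPM in pair 784, 1927 CPM in pair 783 and 2631 CPM in pair 779 for Tim-4+ TAMs. In Tim-4- TAMs it was 1709, 690.6, 664.6 and 825.4 CPM in the same order. Every Tim-4+ library lay above every Tim-4- library, and the Tim-4- library of pair 793 stood apart from the other three of its subset. Tim-4+ TAMs averaged 2510 ± 537 CPM, against 972 ± 496 CPM for Tim-4- TAMs (SD over 4 libraries each). The log2 fold change was 1.46 (SE 0.19), with an adjusted p of 0.00654 by edgeR's quasi-likelihood test blocked on the pair, with Benjamini-Hochberg correction for 16861 genes. Within pairs the log2 difference was 0.90 in pair 793, 1.73 in pair 784, 1.54 in pair 783 and 1.67 in pair 779. The pair whose Tim-4- library kept most Timd4 thus had the smallest Lyz1 difference, whereas for Lyz2 the smallest was in pair 783 (0.61).

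Lyz2 was among the most abundant transcripts of these cells. It had more counts than any other gene in 6 of the 8 libraries and was second in both libraries of pair 783, after Apoe, which encodes a lipid-carrying apolipoprotein. Its level was 46905, 33394, 35617 and 43169 CPM in Tim-4+ TAMs of pairs 793, 784, 783 and 779. Tim-4- TAMs had 27061, 16043, 23373 and 18187 CPM in the same order. The subsets did not overlap, and within both subsets the highest library was that of pair 793 and the lowest that of pair 784. Tim-4+ TAMs averaged 39771 ± 6334 CPM of Lyz2, against 21166 ± 4992 CPM for Tim-4- TAMs (SD over 4 libraries each). The log2 fold change was 0.93 (SE 0.23, adjusted p = 0.0312 in the same edgeR fit), with pair differences of 0.79, 1.06, 0.61 and 1.25.

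Both members were called higher, and 8.97% of the 16861 genes tested were called higher in Tim-4+ TAMs, while 6.84% had no overlap in that direction. A fold change of at least 2 together with the call was reached by Lyz1, as by 3.80% of genes tested, and was missed by Lyz2. In bulk samples, fewer cells of a type and less RNA per cell cannot be told apart. Without the pair block the adjusted p was 0.0631 for Lyz1 and 0.0797 for Lyz2, so neither was called. When single pairs were left out, Lyz1 lost its call without pair 784 (adjusted p = 0.0598), and Lyz2 lost it without pair 793 (0.0685), 784 (0.153) or 779 (0.138). Scaled by total counts in place of TMM, the log2 fold change was 1.10 for Lyz1 (adjusted p = 0.00743) and 0.57 for Lyz2 (adjusted p = 0.0259). The direction stayed the same throughout.

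**Figure D2:**
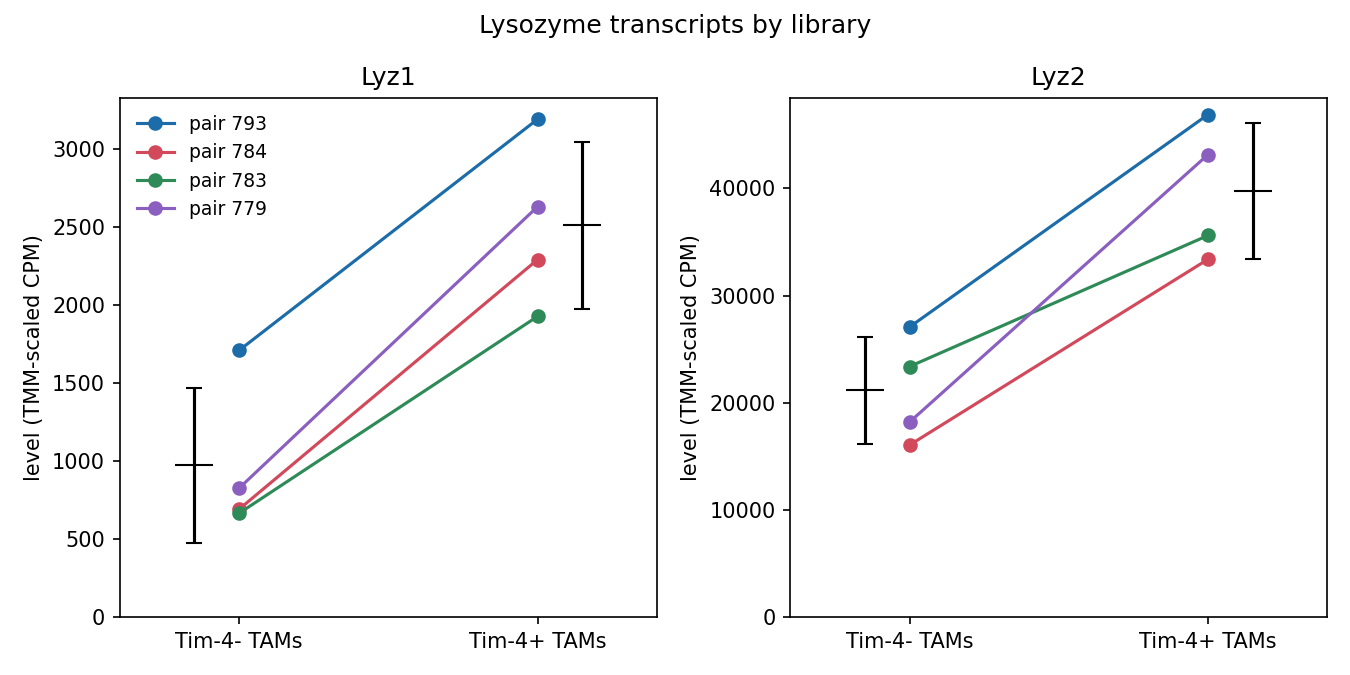
Level of Lyz1 (left) and Lyz2 (right) in TMM-scaled CPM on linear axes from 0, for Tim-4- and Tim-4+ TAMs. Points are libraries, colored lines join the libraries of a pair, and black bars show the mean and SD of 4 libraries; all 4 lines rise in both panels and the blue Tim-4- point of pair 793 lies above the other three Tim-4- points for Lyz1.

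The sum of both genes does not change if reads are traded between them. It averaged 42281 ± 6816 CPM for Tim-4+ and 22139 ± 5372 CPM for Tim-4- TAMs, a log2 fold change of 0.95 (SE 0.23, adjusted p = 0.0295 in the edgeR fit on the table with both rows merged). As a share of all counts, Lyz2 took 2.89% to 4.17% in Tim-4+ libraries and 1.90% to 2.85% in Tim-4- libraries. Lyz1 took 0.183% to 0.284% and 0.0750% to 0.180%. In the order of all genes by counts, Lyz1 stood between place 27 and place 57 for Tim-4+ libraries and between place 46 and place 142 for Tim-4- libraries.

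Per length, Lyz2 exceeded Lyz1 in both subsets. Per kb of exon, Lyz1 had a level of 1988 ± 425 CPM for Tim-4+ and 770 ± 393 CPM for Tim-4- TAMs. Lyz2 had 30221 ± 4813 and 16084 ± 3793 CPM per kb. The Lyz2 level per kb was 15.4 ± 1.76 times that of Lyz1 for Tim-4+ and 23.1 ± 7.75 times for Tim-4- TAMs (SD over 4 libraries).

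The balance between the paralogues, which needs no scaling between libraries, leaned further toward Lyz1 in Tim-4+ TAMs in each pair. Of the Lyz1 and Lyz2 counts together, Lyz1 made up 6.37% (95% exact Clopper-Pearson interval 6.34 to 6.40) in pair 793, 6.42% (6.39 to 6.46) in pair 784, 5.13% (5.10 to 5.16) in pair 783 and 5.74% (5.71 to 5.78) in pair 779 of Tim-4+ TAMs. In Tim-4- TAMs its share was 5.94% (5.91 to 5.97), 4.13% (4.09 to 4.16), 2.76% (2.74 to 2.79) and 4.34% (4.31 to 4.38) in that order. These intervals cover counting error only and are far narrower than the spread between libraries. The subsets overlapped, because the Tim-4- share of pair 793 exceeded the Tim-4+ shares of pairs 783 and 779.

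The mean share was 5.92% ± 0.61 for Tim-4+ and 4.29% ± 1.30 for Tim-4- TAMs, a paired difference of 1.62 ± 0.91 percentage points (SD, n = 4 pairs). On the log2 scale the Lyz1 to Lyz2 ratio was higher in Tim-4+ TAMs by 0.11, 0.67, 0.93 and 0.43 in pairs 793, 784, 783 and 779, with a mean of 0.53 ± 0.35 (a 1.45-fold higher ratio). An exact two-sided sign-flip permutation test over the 4 pairs gave p = 0.125, the smallest that 4 pairs allow, so the design cannot reach 0.05 in this form. The exact unpaired permutation test over 70 relabellings gave p = 0.0857. An unequal change of the paralogues was therefore not established by these tests. The widest gap was in pair 783, where 1 Lyz1 count stood against 35.2 Lyz2 counts in the Tim-4- library and 18.5 in the Tim-4+ library. The narrowest was in pair 793, with 15.8 and 14.7.

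**Figure D3:**
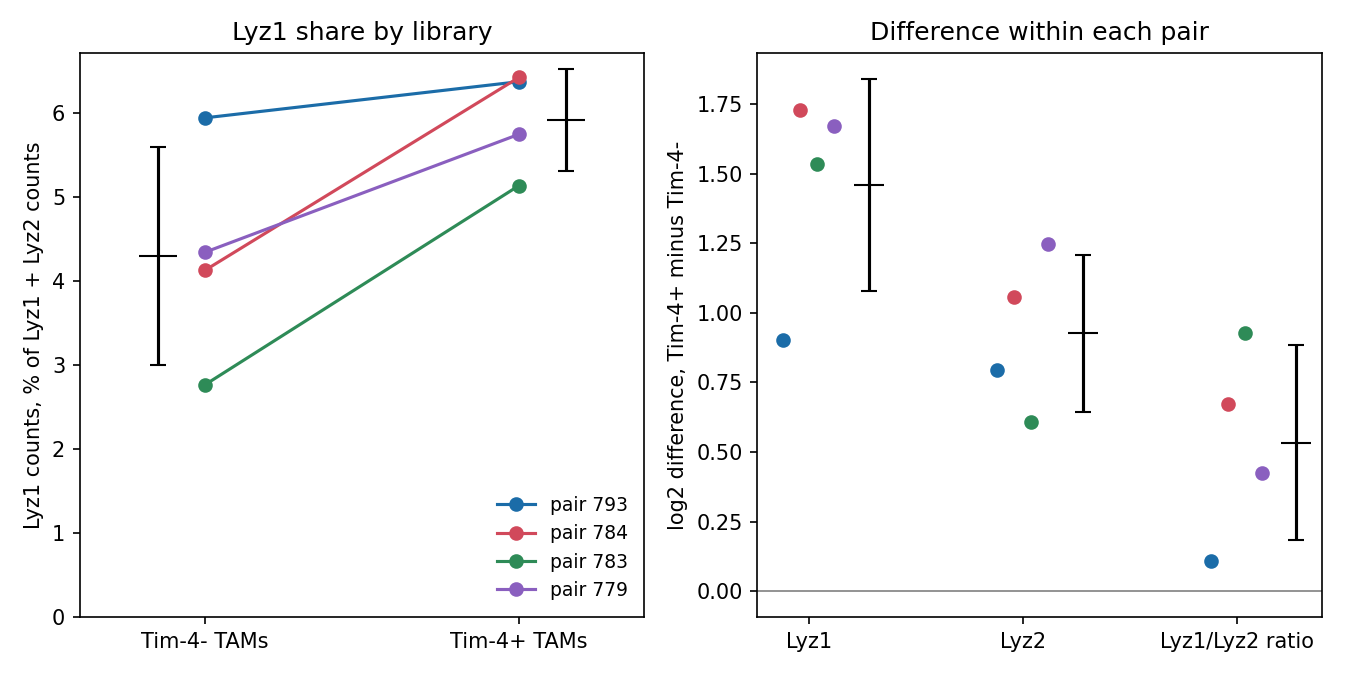
Left, Lyz1 counts as a percentage of Lyz1 plus Lyz2 counts by library, on an axis from 0, with lines joining the libraries of a pair; right, the log2 difference (Tim-4+ minus Tim-4-) within each pair for Lyz1, Lyz2 and the Lyz1 to Lyz2 ratio. Black bars show mean and SD (n = 4); all differences lie above 0, and the ratio runs from 0.11 in pair 793 to 0.93 in pair 783.

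Across the 8 libraries the log2 levels of Lyz1 and Lyz2 had a Pearson correlation of 0.93, and of 0.72 after the subset means were removed. Both values are descriptions, since the libraries share pairs and subsets. The 2 lanes of each library gave nearly the same levels, with lane 2 to lane 1 ratios of 0.981 to 1.005 for Lyz1 and 0.989 to 0.994 for Lyz2. Reads set aside as not unique numbered 3153643 in lane 2 of the Tim-4- library of pair 779 against 10020232 in its lane 1, yet its Lyz1 share was 4.36% in lane 1 and 4.32% in lane 2.

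Markers of other cells moved with the subsets. The 8 tumor or mesothelial markers (Msln, Upk3b, Wt1, Krt7, Krt8, Krt18, Krt19 and Epcam) were all called lower in Tim-4+ TAMs (8 of 8, where 8.43% of genes tested were called lower), with a summed level of 106 to 390 CPM in Tim-4+ and 412 to 1937 CPM in Tim-4- libraries. Among Tim-4- libraries their sum was lowest in pair 793, where Lyz1 and Lyz2 were highest. It was highest in pair 779, where Lyz1 exceeded that of pairs 784 and 783 and Lyz2 lay between theirs. All 9 large peritoneal macrophage markers, among them Gata6, Prg4 and Timd4, on whose product the subsets were sorted, were called higher (8.97% over all genes), with sums of 14520 to 34370 and 3057 to 7984 CPM. The Tim-4- library of pair 793 held the 7984, and the other three held at most 3515. The part of these markers in the lysozyme differences was not tested.

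Macrophage markers themselves were unequal. Their summed level, given above, was higher in the Tim-4+ library of each pair. Adgre1, which encodes F4/80, the scavenger receptor gene Cd68, the efferocytosis receptor gene Mertk and the integrin gene Itgam rose (4 of 7 called). Over all genes tested, 8.97% were called higher and 8.43% lower. Mrc1, which encodes the mannose receptor CD206, fell, and Csf1r and Fcgr1 did not pass the test. Cd68 rose by a log2 fold change of 1.34 (SE 0.21, adjusted p = 0.00891), whereas Csf1r, the receptor gene for the macrophage growth factor, had 0.25 (SE 0.17, adjusted p = 0.353).

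The lysozyme genes were also set against these markers within each library, a scaling chosen after the values were seen. Per count of the 7 markers, Lyz2 had 5.34, 3.39, 4.02 and 4.30 counts in the Tim-4+ libraries of pairs 793, 784, 783 and 779 and 4.30, 3.33, 3.66 and 4.08 in the Tim-4- libraries, and these ranges overlapped. With the marker sum in place of TMM, the edgeR log2 fold change of Lyz2 was 0.14 (SE 0.13, adjusted p = 0.367) and that of Lyz1 was 0.67 (SE 0.16, adjusted p = 0.00236). Lyz1 was thus called on this scale and Lyz2 was not, and the difference between them is the ratio tested above. Against Csf1r alone, Lyz1 had a log2 fold change of 1.21 (adjusted p = 9.97e-05) and Lyz2 of 0.68 (adjusted p = 0.00758). The direction held on every scale tried, whereas the size for Lyz2 depended on which macrophage genes were the reference.

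**Figure D4:**
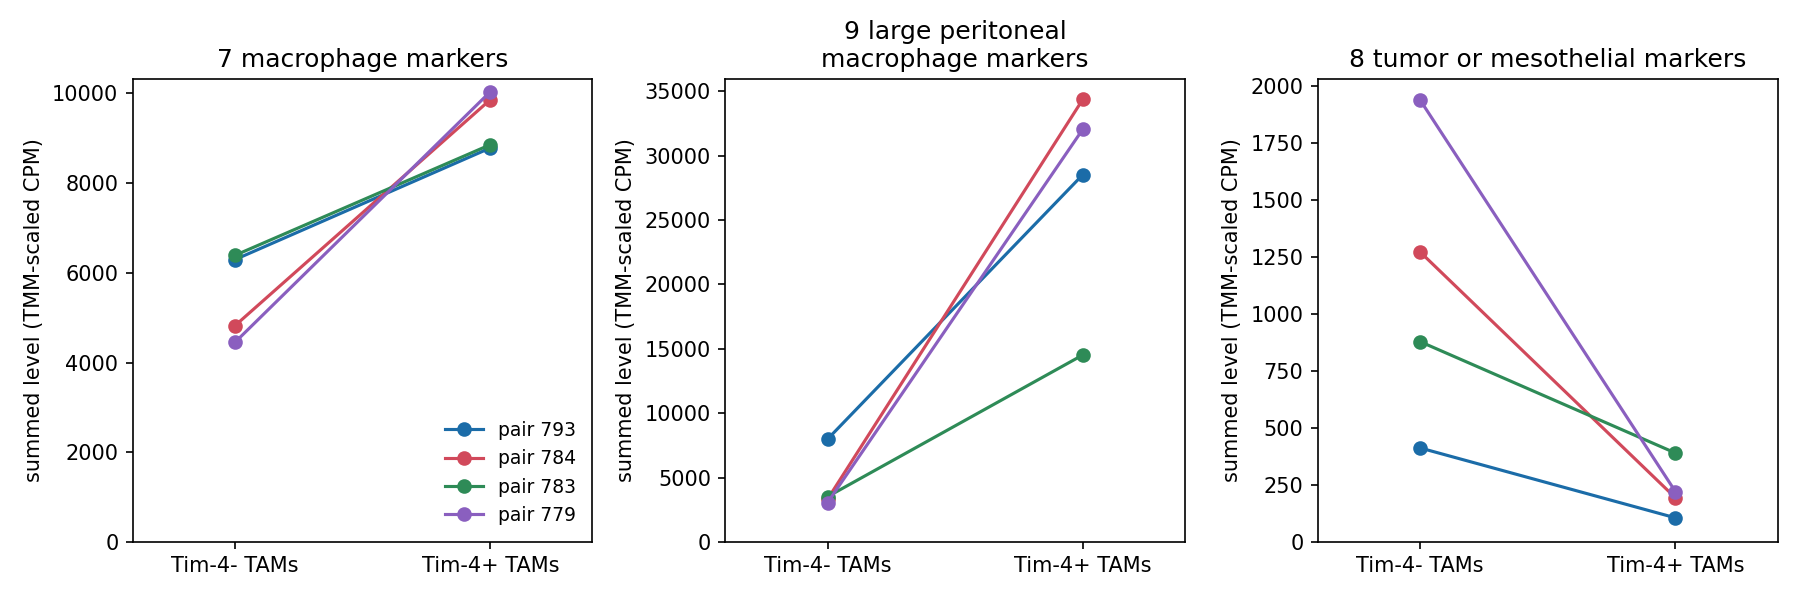
Summed level (TMM-scaled CPM, linear axes from 0) of 7 macrophage markers, 9 large peritoneal macrophage markers and 8 tumor or mesothelial markers in Tim-4- and Tim-4+ TAMs, with a point for each library and lines joining pairs. The first 2 sums are higher and the third is lower in the Tim-4+ library of every pair; Adgre1 is in the first 2 lists.

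Neutrophils and Paneth cells, which are among the other known sources of these transcripts, were examined through their markers. Of 14 neutrophil markers 5 passed the filter and 2 were called higher (8.97% over all genes), Prtn3 (proteinase 3) and Mmp8 (neutrophil collagenase). The summed level of the list was 111 to 267 CPM for Tim-4+ and 37.0 to 114 CPM for Tim-4- libraries, and Prtn3 alone gave 104 to 257 CPM of it in Tim-4+ TAMs. The neutrophil genes Elane, Mpo, Ly6g and S100a9 were near 0, at up to 0.66 CPM in any Tim-4+ library. Among Tim-4- libraries Mpo was the highest of these at 2.49 CPM in pair 784. S100a8 had 1.53 to 2.89 CPM in Tim-4+ and 1.39 to 1.90 CPM in Tim-4- libraries. Mmp9 had 2.44 to 11.2 and 3.05 to 13.4 CPM, and neither was called. Mmp8 had 0 to 54 counts per library. No Paneth marker passed the filter, 6 of 8 had 0 counts in all libraries, and the list summed to at most 0.104 CPM. Of the 7 monocyte markers Ly6c2, Ccr2 and Chil3 were called lower and 0 higher in Tim-4+ TAMs.

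Other members of the lysozyme family were nearly absent. Of the 10 family genes listed, Lyz1 and Lyz2 alone passed the filter on low counts, and 3 (Lyzl1, Lyg1 and Lyg2) had 0 counts in all libraries. The rest, Lyzl4, Lyzl6, Lalba, Spaca3 and Spaca5, reached at most 27 counts in a library. The neighboring lysozyme-like gene 9530003J23Rik had at most 4 counts, and the pseudogene Gm10936, chosen after its values were seen, had 0. These are the other lysozyme-like sequences of the locus, with 71.5% and 86.2% identity to Lyz2 over the parts that aligned (509 and 123 bases), and they drew almost no counts.

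Genes on either side of the pair on chromosome 10 were mostly not called. Of the 5 nearest protein-coding genes on each side, 9530003J23Rik and Lrrc10 were too low to test, and 2 of the rest were called higher (8.97% over all genes), Yeats4, encoding a histone-acetyl reader, with a log2 fold change of 0.46 (SE 0.12, adjusted p = 0.0336), and Mdm2, the ubiquitin ligase gene for p53, with 0.48 (SE 0.14, adjusted p = 0.0488). Cct2, Frs2, Cpsf6, Slc35e3 and Nup107 had values from -0.09 to 0.21 and were not called. Cpm, a carboxypeptidase gene, had 1.36 (SE 0.51, adjusted p = 0.103) at 8 to 43 counts a library, and Lrrc10 had 0 counts.

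Genes of peptidoglycan sensing and of related bacterial sensing were looked at next. Peptidoglycan fragments are recognized by NOD1 and NOD2, which signal through RIPK2, and by the peptidoglycan recognition proteins. The list also held broader sensors of bacteria, among them Tlr2, its partners Tlr1 and Tlr6, and Cd14. Of 18 listed genes 14 were tested, 4 rose and 1 fell, with a median log2 fold change of 0.33 against 0.00 for all genes tested, of which 8.97% were called higher and 8.43% lower. Pglyrp1, a peptidoglycan-binding protein gene, rose by 2.75, Nlrp3, the inflammasome sensor gene, by 0.95, Cd14, the co-receptor gene for bacterial lipids, by 0.93 and Ripk2 by 0.77. Slc15a4, a lysosomal peptide transporter gene, fell by 0.44. Nod1 and Nod2 were not called, at 0.02 and 0.53, nor was Tlr2 at 0.28.

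Pglyrp1 was low and uneven, with 12.7, 14.3, 1.22 and 15.1 CPM in Tim-4+ TAMs, and its Tim-4+ library of pair 783 lay below the Tim-4- library of pair 793 at 3.81 CPM. Cd14 was abundant, with 1596, 1499, 964.7 and 1546 CPM in Tim-4+ TAMs, means of 1402 and 753 CPM in Tim-4+ and Tim-4- TAMs and an adjusted p of 0.0115.

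Of 16 genes for other antimicrobial products and effectors of phagocytes, 11 were tested, 5 rose and 1 fell, with a median log2 fold change of 0.58, beside the same 8.97% and 8.43% over all genes. Scaled by total counts, 3 rose and 1 fell, where 789 of all 16861 genes tested were called higher and 4903 lower. Among those that rose, Lcn2, whose product binds bacterial siderophores, rose by 1.82, Cybb, a subunit gene of the phagocyte oxidase, by 1.11, Acod1, the itaconate-making enzyme gene, by 0.98, and Slc11a1, the phagosomal metal transporter gene, by 0.59. Chil3, a chitinase-like gene typical of monocytes and alternatively activated cells, fell by 1.75. Cyba, Ncf1, Ncf4, Nos2 and Mpeg1 did not pass the test. Lcn2 was spread widely between pairs, at 135 CPM in the Tim-4+ library of pair 784 and 5.80 to 11.0 CPM in the other Tim-4+ libraries.

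Transcription factors of the myeloid program that are known for lysozyme or for the motifs above gave 1 call among 10 tested, near the 8.97% of all genes called higher. Cebpb, a C/EBP family gene, rose by 0.89 (adjusted p = 0.0205), while Spi1, which encodes PU.1, had 0.54 (adjusted p = 0.0557), Cebpa had -0.21 and Runx1 had 0.18. The median of the list was 0.11. Without the pair block 0 of the genes in the peptidoglycan, antimicrobial and transcription factor lists were called. Few genes were called in that fit at all, 147 higher and 85 lower of the 16861 tested.

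The genes whose log2 level followed each lysozyme most closely over the 8 libraries were picked from the 8766 that averaged 10 CPM or more. For Lyz1 these were Il1a (r = 0.99), Il10 (0.99), Tox2 (0.99), Zfp64 (0.99) and Cgnl1 (0.98). Il1a encodes the cytokine interleukin-1 alpha and had means of 240 and 61.7 CPM in Tim-4+ and Tim-4- TAMs. Il10, the interleukin-10 gene, had 67.6 and 20.0 CPM. For Lyz2 they included Gpx3 (0.98), Selplg (0.98), Rab7-ps1 (0.98) and Fer (0.98). Selplg encodes the ligand of P-selectin and had means of 1195 and 493 CPM. All of these genes were called higher in Tim-4+ TAMs, as were 8.97% of all genes tested. They were picked for following genes whose levels did not overlap between the subsets. Their calls therefore follow from the choice and are not a separate result. The correlations are descriptions over 8 libraries that share subsets and pairs.

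The Lyz1 to Lyz2 ratio was followed most closely by Wbp11 (r = 0.96), Gm4202 (0.96), Il6 (0.95), Ptgs2 (0.95) and Cd14 (0.94). Il6, the interleukin-6 gene, and Ptgs2, the gene for the inducible cyclooxygenase, averaged 57.6 and 276 CPM in Tim-4+ TAMs, where Tim-4- TAMs had 10.5 and 83.7 CPM. Wbp11 and Gm4202 did not pass the test between the subsets. At the other end stood Sorl1 (-0.98), Tubgcp4 (-0.96), Cyld (-0.91), Acp5 (-0.91) and Taf13 (-0.90), of which Sorl1, a sorting receptor gene, and Acp5, the gene for tartrate-resistant acid phosphatase, fell. Acp5 had means of 6.50 and 17.7 CPM in Tim-4+ and Tim-4- TAMs.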

How the data were processed

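Read counts per gene, whole numbers without normalization, were deposited by the authors for each lane of 8 stranded, ribosomal RNA-depleted, paired-end libraries. The submitters' processing notes name FastQC 0.11.3, TopHat2 2.0.13, Cufflinks, Cuffdiff 2.2.1, GRCm38 and mm10. The methods text gives a human reference instead, but the identifiers are mouse. The read counter, and whether it used strand, are not given in the sources used here. Reads with several alignments were set aside, which lowers near-identical genes.

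Both lanes of a library were summed, so 1 library was 1 replicate. Lane 1 of the Tim-4- library of pair 793 lists gene symbols, with Timd4 moved to the top. The Timd4 row was put back at the place of its identifier, and the lane was then joined by row order (96.8% of 53704 symbols matched). GENCODE M21 held 98.6% of the 55604 identifiers. Totals were 53527928 to 69594245 counts per library. The 16861 genes that reached 10 counts in 4 or more of the 8 libraries were tested with edgeR 4.0.16 (R 4.3.3), by a quasi-likelihood fit with TMM factors, robust estimation, the pair as a block and Benjamini-Hochberg adjustment, and called at an adjusted p under 0.05. The standard error is the log2 fold change divided by the square root of F. Log2 levels used a prior count of 2. The pairing comes from the label numbers: deviations from subset means correlated at 0.28 to 0.50 within pairs. Each Tim-4+ library correlated best with the Tim-4- library of its own number. The fit was tested on simulated counts of the 16861 genes and recovered 68.0% of 200 genes given a log2 change of 1.5, with 11.1% of its calls false. This false share lay above the 0.05 that the threshold is meant to hold. The simulated counts held no differences between pairs, so the use of the block was not tested. Fewer genes were changed in them than were called in the data. Sequences were aligned with Biopython 1.88 from GENCODE transcripts and RefSeq promoter windows. 0 per-sample columns were left unused.

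The members, gene lists and tests were chosen with earlier results of these data known. Named genes are Lyz1, Lyz2, list members, the 5 nearest protein-coding genes on each side, and the 5 genes best correlated with each profile, some of which are not reported here. Alternatives were DESeq2 1.42.0, other scalings and filters, single lanes, no block and each pair left out. After the data were seen, leaving out the symbol-listed lane, scaling to macrophage markers or to Csf1r, and list counts with each pair left out were added.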

Additional observations from a re-analysis of the deposited data

Results flagged for a closer look

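The Lyz1 level of the Tim-4- library of pair 793 lay far from the others of its subset. It was 1709 CPM, against 664.6 to 825.4 CPM in the other three, and the gap took up 0.846 of the whole range of the 4 libraries. About 1 in 20 groups would be marked this way by chance, and the levels of both genes, their sum and their ratio were examined in both subsets. The same library had 84.9 CPM of Timd4, the most among Tim-4- libraries, and the highest summed level of large peritoneal macrophage markers in its subset (7984 CPM). The Tim-4- library of pair 779 had the least Timd4 (1.96 CPM) and the next highest Lyz1 (825.4 CPM). The part of these markers was not tested. Without pair 793 the log2 fold change of Lyz1 was 1.65 and its adjusted p by edgeR stayed under the threshold.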

How the results depend on the processing

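Leaving out the pair block lowered the Lyz1, Lyz2 and summed log2 fold changes to 1.37, 0.91 and 0.93, none of them called (adjusted p = 0.0631, 0.0797 and 0.0774 in edgeR), and left 147 genes higher and 85 lower against 1512 and 1421 with it, and 6 higher and 2 lower against 27 and 16 among the listed genes. With each pair left out in turn, the log2 fold change ranged from 1.37 to 1.65 for Lyz1, 0.81 to 1.03 for Lyz2 and 0.84 to 1.05 for the sum, and the log2 ratio difference from 0.40 to 0.68. The sum lost its call without pair 793 (adjusted p = 0.0651), 784 (0.148) or 779 (0.130). Calls over all genes then ranged from 78 to 1573 higher and 54 to 1895 lower, and among listed genes from 1 to 31 higher and 1 to 15 lower, with the fewest without pair 784 in each case. Scaling by total counts moved the median of all genes by -0.36 and the calls to 789 higher and 4903 lower (13.9% of calls higher against 51.6%), with log2 fold changes of 1.10 for Lyz1 and 0.57 for Lyz2, or 1.46 and 0.93 above that median, a distance that such a scaling leaves nearly as it was. Relative to the summed macrophage markers, Lyz2 (0.14, adjusted p = 0.367) and the sum (0.16, adjusted p = 0.284) were no longer called, with 353 genes higher and 9918 lower. Relative to Csf1r, 804 genes were higher and 1956 lower. DESeq2 with the block called 2194 higher and 2328 lower. Both members kept their direction and call with DESeq2, DESeq2 size factors, total counts, TMM without mitochondrial genes or without Lyz1 and Lyz2, other count filters, either lane alone and without the symbol-listed lane. The causes were not tested. Depth limits neither member, while the 4 pairs limit the test of their ratio. They also limit the calls of both members, which were lost without the block or without pair 784.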

Other observations

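Lane 2 gave a slightly lower Lyz2 level than lane 1 in 8 of 8 libraries, with ratios of 0.989 to 0.994. For Lyz1 the ratio was on either side of 1, from 0.981 to 1.005. The cause was not tested. Levels of markers of lymphocytes and dendritic cells were low in all libraries, with sums of at most 16.6 CPM for 4 B cell markers, 9.30 CPM for 5 T cell markers, 16.3 CPM for 6 dendritic cell markers and 0.651 CPM for 4 eosinophil markers. Among them Cd209a rose and Zbtb46, Cd79b and Cd4 fell in Tim-4+ TAMs, where 8.97% of all genes tested were called higher and 8.43% lower. Of the T cell markers Cd4 alone passed the filter, while Cd3e, Cd3d, Cd3g and Cd8a were too low to test. Cd4 gave 7.48 CPM of the 9.30 CPM in the Tim-4- library of pair 783, so its fall does not speak for T cells.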
